A study of Mus musculus with 6 samples.

Results

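The genes described here encode the proteins of the mitochondrial ribosome that carry Mrpl and Mrps symbols. They were chosen by name and level: rows whose symbol starts with Mrpl or Mrps followed by a number, reaching 1 CPM (a count scaled to 1000000 reads of the library) in 3 or more of the 6 libraries. This gave 75 genes of the 11900 that passed the same filter and of 20129 rows in all, 48 of the large subunit, 26 of the small subunit and Mrps36, which is counted in neither. Of 80 rows with such a symbol, 5 stayed below the filter: Mrpl53 and the pseudogenes Mrpl23-ps1, Mrpl48-ps, Mrps36-ps1 and Mrps36-ps2.

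The libraries came from live (7AAD-) CD45+ CD11b+ brain cells, sorted as microglia, the resident macrophages of the brain, from C57BL6/J mice aged 5 months. One group was 5xFAD, a model of amyloid deposition in which mutant human transgenes are driven by the neuronal Thy1 promoter (replicates 4, 5 and 6). The other was the same model without interleukin-3, a cytokine known from blood cell formation; it is called Il3-/-5xFAD and had replicates 1, 2 and 3. Every library pooled cells of 4 mice, 2 male and 2 female, so spread between mice is averaged within a library. Both groups carry the 5xFAD transgenes; mice without them were not analysed here. All differences below are Il3-/-5xFAD minus 5xFAD.

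Mitochondria make a small set of proteins of the respiratory chain from their own genome, on ribosomes of their own. The RNA of these ribosomes is encoded in the mitochondrial genome, while all of their proteins are encoded in the nucleus, made in the cytosol and imported. Some of the proteins descend from bacterial ribosomal proteins and others were added during the evolution of mitochondria. The small subunit reads the messenger RNA and the large subunit joins the amino acids and releases the chain towards the inner membrane, where the oxidative phosphorylation complexes are assembled.

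Reads of Il3 itself numbered 54, 61 and 29 in 5xFAD replicates 4, 5 and 6, with 0 reads in each Il3-/-5xFAD library. Library totals ran from 27970850 to 37605490 reads. The 6 microglial markers summed to between 29437 and 31130 CPM in 5xFAD and between 30050 and 33389 CPM in Il3-/-5xFAD. Markers of other blood cells were lower in Il3-/-5xFAD: the 8 neutrophil markers summed to between 1187 and 3197 CPM against between 206 and 810 CPM, with 5 of the 8 called lower by limma. For monocyte markers the sums were 137 to 192 against 65.9 to 127 CPM (3 of 5 tested called lower), for T and B cell markers 63.9 to 109 against 33.0 to 44.7 CPM (3 of 5), and for choroid plexus markers 176 to 506 against 60.2 to 127 CPM (2 of 3). Oligodendrocyte markers summed to between 78.1 and 98.6 CPM in 5xFAD and between 60.9 and 71.8 CPM in Il3-/-5xFAD, also without overlap, with 0 of 3 tested called. In every library, 1 of 4 oligodendrocyte, 1 of 8 T and B cell, 2 of 4 neuron and 1 of 4 endothelial markers stayed below 1 CPM. The part of these cells in the values below was not tested. In such bulk libraries fewer cells of a type and less RNA per cell cannot be told apart. Il3-/-5xFAD replicate 3 stands apart: it had the fewest genes with a read (14435) and the lowest weight when limma estimated one per library (0.412, against 0.818 to 1.54 in the others). For some of the results that rest on it, values without it are also given.

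Mitochondrial ribosomal protein mRNAs were of middling abundance in these cells. The mean level over the 6 libraries ran from 3.38 CPM (Mrps36) to 64.3 CPM (Mrpl24), with a median of 16.8 CPM, and each gene had between 54 and 2281 reads in each library. Per kilobase of transcript, which allows genes to be compared, the median level was 11.9 CPM, against 9.28 CPM for all tested genes, 47.3 CPM for the nuclear subunits of oxidative phosphorylation and 295 CPM for the proteins of the cytosolic ribosome. The highest levels per kilobase were those of Mrpl52 (73.1 CPM), Mrpl24 (52.4 CPM), Mrpl33 (48.8 CPM) and Mrps21 (40.0 CPM), and the lowest those of Mrps25 (2.67 CPM) and Mrpl35 (3.13 CPM). These 6 genes differ far more in level per kilobase than any of them differed between genotypes. The lengths behind the lowest levels include long annotated ends (6073 bases for Mrps25 and 3721 for Mrpl35), while the transcripts of Mrpl52 (418 bases) and Mrpl33 (478 bases) are short.

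The comparison asked whether loss of interleukin-3 was accompanied by a different level of these mRNAs in microglia of amyloid-bearing mice. None of the 75 genes passed the test (limma on log2(CPM + 1), adjusted p from 0.133 to 0.997). Over all tested genes limma called 105, 0.882% of them, with 0.63% lower and 0.252% higher. At an unadjusted p under 0.05 limma had 10 of the 75 genes, all with a negative difference, or 13.3%, below the 16.5% of all tested genes. On the recovered reads edgeR (TMM factors or library totals) and DESeq2 also called 0 of the 75, with 9, 9 and 10 at an unadjusted p under 0.05.

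The differences were small and more often negative than positive. Of the 75, 56 were negative (74.7%), against 50.1% of all tested genes, and the median log2 difference was -0.11, against -0.00059 over all. The range was from -0.62 (Mrps36) to 0.36 (Mrps27). The groups did not overlap for 13 of the 75 genes, or 17.3%, against 21.2% of all tested genes. All 13 were lower in Il3-/-5xFAD, a direction that 11.5% of all tested genes showed, and 0 were higher, where the background was 9.65%. The 95% interval of the difference lay within 1 log2 unit of 0 on the log2(CPM + 1) scale for 74 genes, and Mrps36 was the exception (-1.17 to -0.06). The standard error had a median of 0.158 on the log2 scale.

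**Figure D1:**
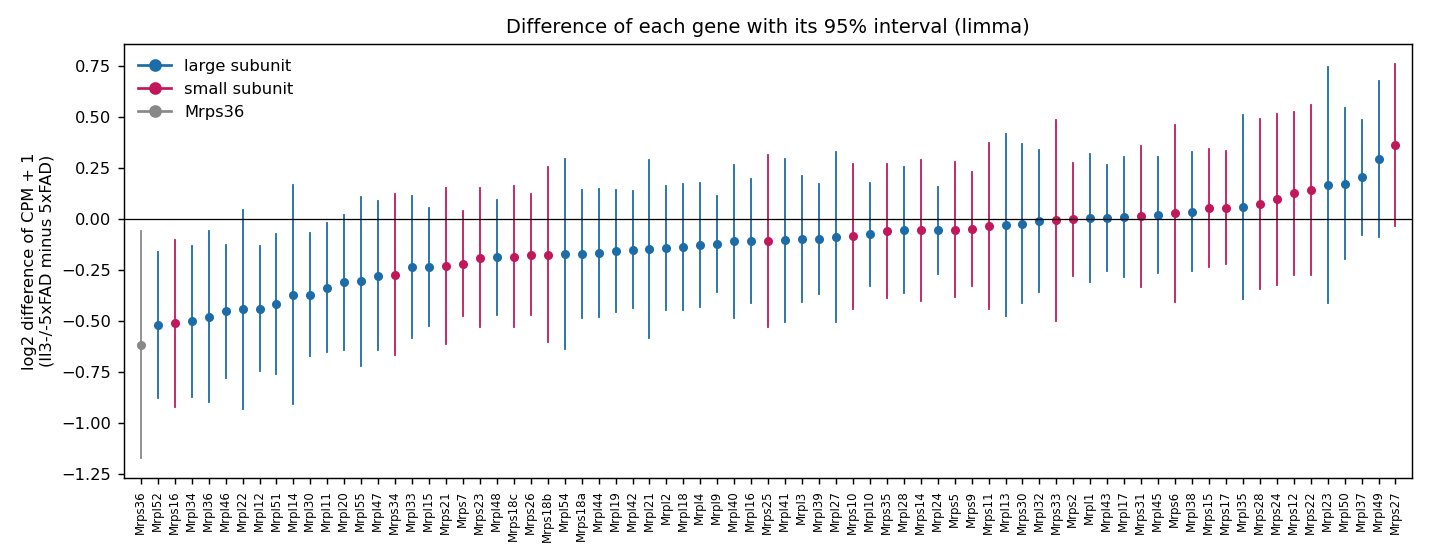
Log2 difference of CPM + 1 between Il3-/-5xFAD and 5xFAD for each of the 75 genes, in order of the difference (points, coloured by subunit), with the 95% interval from limma (lines). The points run from -0.62 (Mrps36) to 0.36 (Mrps27), and 10 of the intervals do not reach 0.

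Both subunits were followed as sums of CPM in each library. The 48 large-subunit genes summed to 1048, 993 and 999 CPM in 5xFAD (replicates 4, 5 and 6) and to 888, 877 and 1008 CPM with Il3 absent (replicates 1, 2 and 3) (means 1013 ± 30.4 and 924 ± 72.9 CPM, SD, n = 3). The 26 small-subunit genes summed to 439, 422 and 444 CPM and to 402, 388 and 460 CPM (434.9 ± 11.8 and 417 ± 37.9 CPM). In both, Il3-/-5xFAD replicates 1 and 2 lay below every 5xFAD library, and replicate 3 lay within the range of the 5xFAD libraries for the large subunit and above it for the small. For all 75 genes the share of a library's reads was 0.149%, 0.142% and 0.145% in 5xFAD and 0.129%, 0.127% and 0.147% in Il3-/-5xFAD, so the groups overlapped. Without Il3-/-5xFAD replicate 3 the median log2 difference of the 75 genes was -0.19, with 64 of 75 negative, and without replicate 2 it was -0.08.

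In the large subunit 38 of 48 genes were negative (median -0.13). Of these 48, 8 had an unadjusted limma p under 0.05 (16.7%, against 16.5% of all tested genes) and 10 did not overlap between groups (20.8%, against 21.2%), shares near the background. In the small subunit 17 of 26 were negative (median -0.05), 1 had an unadjusted p under 0.05 (3.85%) and 2 did not overlap (7.69%). The medians depended on single libraries. Without Il3-/-5xFAD replicate 3 they were -0.22 for the large and -0.11 for the small subunit, and without replicate 2 they were -0.08 and -0.0069. The small-subunit median was -0.03 without Il3-/-5xFAD replicate 1, and without 5xFAD replicate 4 or 5 it was -0.02 or -0.09. The CPM of the large subunit was 2.39, 2.35 and 2.25 times that of the small in 5xFAD and 2.21, 2.26 and 2.19 times in Il3-/-5xFAD, values that overlap. Split by descent, the 30 large-subunit genes with bacterial relatives had a median of -0.14 (26 negative) and the 18 specific to mitochondria one of -0.11 (12 negative). In the small subunit these medians were -0.04 (16 genes, 10 negative) and -0.08 (10 genes, 7 negative). Differences between these classes were not tested.

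**Figure D2:**
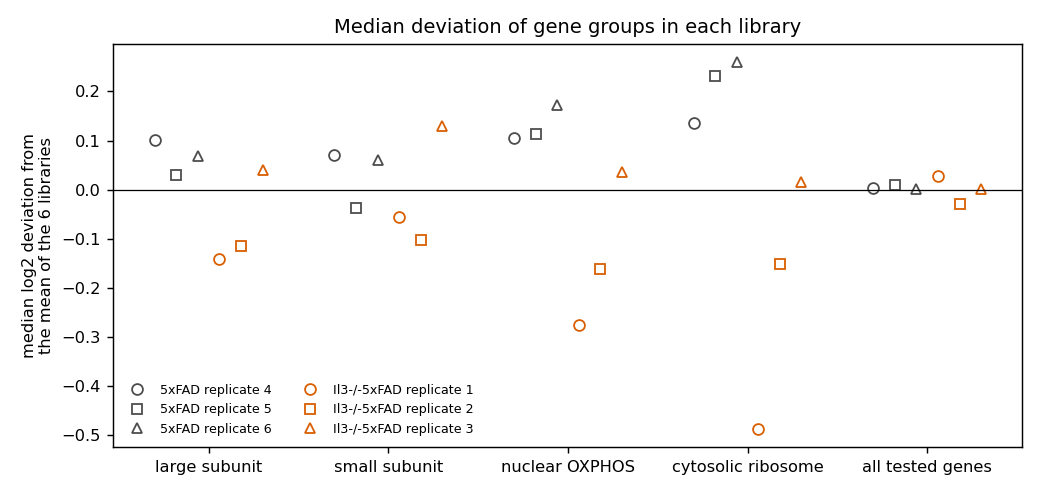
Median, over the genes of each group, of the log2 deviation from the gene's mean over the 6 libraries, shown for each library (symbols and colours give the library). For large-subunit genes the values are 0.10, 0.03 and 0.07 in 5xFAD and -0.14, -0.11 and 0.04 in Il3-/-5xFAD, a narrower spread than for the cytosolic ribosome, where Il3-/-5xFAD replicate 1 is at -0.49.

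The large subunit held 5 of the 6 genes with the smallest p among those with a negative difference. Mrpl52, a large-subunit protein specific to mitochondria, was at 34.1, 32.1 and 41.9 CPM in 5xFAD and 19.4, 25.4 and 30.5 CPM in Il3-/-5xFAD. All 3 Il3-/-5xFAD libraries lay below all 3 of 5xFAD, with means of 36.1 ± 5.19 and 25.1 ± 5.56 CPM (SD, n = 3), which gave -0.52 ± 0.16 on the log2 scale (± SE; adjusted p = 0.133 by limma). It was the only one of the 75 called under any alternative, with limma's array weights (-0.59 ± 0.15, limma adjusted p = 0.0311) and without Il3-/-5xFAD replicate 3 (-0.67 ± 0.15, limma adjusted p = 0.0426). After correction of each library for transcript length its difference was -0.17 (limma adjusted p = 0.587, the highest over its alternatives).

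Mrpl12 is a protein of the stalk to which translation factors bind, and has also been reported to bind the mitochondrial RNA polymerase. It was at 31.5, 32.1 and 25.4 CPM in 5xFAD and 18.7, 22.3 and 23.8 CPM in Il3-/-5xFAD, without overlap but with 5xFAD replicate 6 close to Il3-/-5xFAD replicate 3 (-0.44 ± 0.14, limma adjusted p = 0.139). Mrpl11, which forms the base of the same stalk, was at 16.8, 19.1 and 16.6 CPM and at 14.0, 12.4 and 14.7 CPM (-0.34 ± 0.14, limma adjusted p = 0.272). Mrpl10, which holds Mrpl12 on the ribosome and is given here after its values had been seen, was at 31.96, 28.5 and 33.9 CPM and at 31.6, 29.8 and 27.9 CPM (-0.08 ± 0.12, limma adjusted p = 0.801). Of these 3 genes none passed, and the groups overlapped for Mrpl10 but not for Mrpl12 or Mrpl11.

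Mrpl46, specific to mitochondria, was at 15.6, 14.9 and 18.0 CPM in 5xFAD and 12.2, 11.2 and 11.1 CPM in Il3-/-5xFAD (-0.45 ± 0.15, limma adjusted p = 0.152), and here replicate 3 lay close to the other Il3-/-5xFAD libraries. Mrpl34, of bacterial type, was at 12.05, 12.06 and 12.13 CPM against 6.92, 8.84 and 9.12 CPM (-0.50 ± 0.17, limma adjusted p = 0.161). Its 3 values in 5xFAD were closer together than those of any other gene described here. Mrpl30, also of bacterial type, was at 21.0, 22.4 and 21.7 CPM against 15.8, 15.0 and 19.0 CPM (-0.37 ± 0.14, limma adjusted p = 0.201). With the length correction the differences of Mrpl34 (-0.22) and Mrpl30 (-0.19) were more than 1.5 times closer to 0, while Mrpl46 (-0.31) and Mrpl12 (-0.32) moved less.

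In the small subunit, Mrps16 had the smallest p. It is a protein of bacterial type whose human counterpart is mutated in a respiratory chain disease. Its levels were 15.1, 12.4 and 10.4 CPM in 5xFAD and 7.69, 7.88 and 10.1 CPM in Il3-/-5xFAD (-0.51 ± 0.19, limma adjusted p = 0.194). The groups just fail to overlap, since 5xFAD replicate 6 and Il3-/-5xFAD replicate 3 nearly meet, and the length correction left the difference at -0.50.

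**Figure D3:**
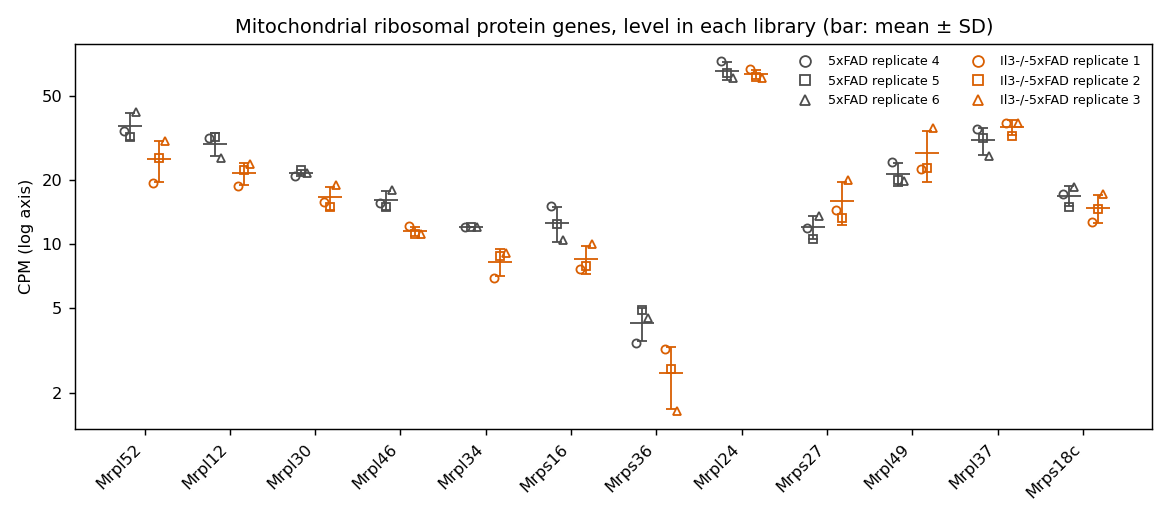
CPM (log axis) of 12 mitochondrial ribosomal protein genes in each of the 6 libraries (symbols), with the mean and SD of each group (bars). From Mrpl52 to Mrps36 the Il3-/-5xFAD libraries lie below the 5xFAD libraries, Mrpl24 is near 60 to 70 CPM in both groups, and for Mrps27 and Mrpl49 the highest value is Il3-/-5xFAD replicate 3.

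Positive differences were smaller and none of these genes was free of overlap between the groups. Mrps27, a small-subunit protein with pentatricopeptide repeats, an RNA-binding fold, was at 11.9, 10.6 and 13.6 CPM in 5xFAD and 14.5, 13.3 and 20.2 CPM in Il3-/-5xFAD (0.36 ± 0.18, limma adjusted p = 0.348). Mrpl49, specific to mitochondria, was at 24.4, 20.1 and 19.9 CPM and at 22.6, 23.0 and 35.4 CPM (0.29 ± 0.17, limma adjusted p = 0.433). In both, Il3-/-5xFAD replicate 3 is the highest library, and without it the log2 differences were 0.19 and 0.09. Mrpl37, another large-subunit protein specific to mitochondria, was at 34.9, 31.7 and 26.0 CPM against 37.2, 32.2 and 37.1 CPM (0.20 ± 0.13, limma adjusted p = 0.466). The next 3 by p were Mrpl50 (0.17 ± 0.17), Mrps22 (0.14 ± 0.19), a small-subunit protein whose human counterpart is also a disease gene, and Mrps12 (0.13 ± 0.18), which lies at the decoding centre. Single libraries moved these values too. Without 5xFAD replicate 6 Mrpl37 was at 0.09 and Mrpl50 at 0.05, the latter at 0.07 if Il3-/-5xFAD replicate 3 was absent instead. Mrps12 was at 0.0082 without 5xFAD replicate 4, and Mrps22 at 0.03 if 5xFAD replicate 5 and at 0.04 if Il3-/-5xFAD replicate 1 was left out.

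Other genes named for their level or role lay nearer to 0 or varied more between libraries. Mrpl24, the most abundant, was at 72.4, 63.7 and 60.7 CPM in 5xFAD and 66.8, 61.3 and 60.8 CPM in Il3-/-5xFAD (-0.06 ± 0.10, 95% interval -0.27 to 0.16). Mrpl32, which is cut to its mature form by the m-AAA protease of the inner membrane, was at 10.98, 9.84 and 10.2 CPM against 10.9, 9.59 and 10.4 CPM (-0.01 ± 0.16). In both, the libraries of the groups interleaved. Mrpl33 (-0.23 ± 0.16) and Mrps21 (-0.23 ± 0.18), both short, turned positive with the length correction (0.09 each). Without Il3-/-5xFAD replicate 3 Mrpl33 was at -0.10 and Mrps21 at -0.38. Mrpl44, whose protein has a fold related to RNase III, was at -0.17 ± 0.14, Mrpl3 at -0.10 ± 0.14 and Mrpl41 at -0.10 ± 0.18. Mrpl41 was at 0.12 after the length correction and at -0.27 without Il3-/-5xFAD replicate 3. Mrps25 was at -0.11 ± 0.19 and Mrpl35 at 0.06 ± 0.21, and leaving out 1 library moved each to either side of 0.

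The symbols do not always give the place of the protein. Mrps30 and Mrps18a carry small-subunit names but sit in the large subunit. Mrps30 was at 17.8, 18.4 and 19.3 CPM in 5xFAD and 18.4, 13.8 and 23.8 CPM in Il3-/-5xFAD (-0.02 ± 0.18), with a wider spread among the Il3-/-5xFAD pools. The 3 related proteins of the S18 family had differences of -0.17 ± 0.14 (Mrps18a), -0.17 ± 0.20 (Mrps18b) and -0.18 ± 0.16 (Mrps18c), with limma adjusted p from 0.604 to 0.710. In the same order they were -0.07, -0.30 and -0.29 without Il3-/-5xFAD replicate 3, and -0.27, -0.13 and -0.08 without replicate 1. The length correction took Mrps18a to 0.03 and Mrps18c to 0.08.

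Mrps36 is now counted to the 2-oxoglutarate dehydrogenase complex of the citric acid cycle rather than to the ribosome. It had the lowest level and the most negative difference of the 75 genes, at 3.43, 4.89 and 4.52 CPM in 5xFAD and 3.22, 2.59 and 1.64 CPM in Il3-/-5xFAD (-0.62 ± 0.25, limma adjusted p = 0.25). These values rest on 54 to 170 reads. With Il3-/-5xFAD replicate 3 left out, the difference of Mrps36 was -0.43. Those of Mrpl52 (-0.67), Mrps16 (-0.62) and Mrpl34 (-0.57) were then more negative, so its rank depends on that library. Mrpl36 and Mrpl51 completed the 10 with an unadjusted p under 0.05, at -0.48 ± 0.19 (limma adjusted p = 0.234) and -0.42 ± 0.16 (limma adjusted p = 0.208), and Mrpl15, Mrps7 and Mrpl19 the 13 without overlap. These 5 were named after their values had been seen. For Mrpl36, Il3-/-5xFAD replicate 3 was the lowest library, at 7.94 CPM against 13.6 and 12.4 CPM in replicates 1 and 2.

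The promoters of some of these genes are shown because letters recognised by factors of mitochondrial gene expression recur in them. Motifs were searched on both strands, GCATGCGC for NRF1 (nuclear respiratory factor 1), CCGGAAG for ETS factors, the family of GABP (also called NRF2), AAGATGGC for YY1, and TATAAA for the TATA box. The windows were those of RefSeq (GRCm38.p6), 250 bases before to 50 after a start, found for 66 of the 75 genes. They are given 5′ to 3′ on the gene's strand, in lower case, with matches to the NRF1, ETS or YY1 letters on either strand in capitals. Mrpl52 (chr14:54426659-54426958, plus strand) and Mrps16 (chr14:20393441-20393740, minus strand, the window of 1 of its starts) are examples of negative differences, each with 2 ETS matches. The window of the other Mrps16 start (chr14:20393585-20393884) has 0 matches to the NRF1, ETS or YY1 letters and is not printed. Mrps27 (chr13:99344536-99344835, plus strand) has the most positive difference, with 1 ETS and 1 YY1 match. Mrpl55 (chr11:59202236-59202535, plus strand) shares its start region with a gene described further on and has none.
Mrpl52: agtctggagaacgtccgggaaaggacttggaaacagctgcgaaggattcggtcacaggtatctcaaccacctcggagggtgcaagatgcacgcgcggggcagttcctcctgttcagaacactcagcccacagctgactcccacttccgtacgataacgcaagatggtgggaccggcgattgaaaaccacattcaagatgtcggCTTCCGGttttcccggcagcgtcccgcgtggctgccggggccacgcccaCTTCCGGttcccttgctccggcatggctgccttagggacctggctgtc
Mrps16: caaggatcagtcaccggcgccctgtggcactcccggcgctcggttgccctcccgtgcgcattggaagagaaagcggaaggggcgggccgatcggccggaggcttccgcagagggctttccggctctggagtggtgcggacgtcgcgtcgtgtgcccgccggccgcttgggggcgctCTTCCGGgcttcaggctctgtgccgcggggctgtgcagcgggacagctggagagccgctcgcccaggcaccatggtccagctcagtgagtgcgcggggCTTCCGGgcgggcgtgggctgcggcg
Mrps27: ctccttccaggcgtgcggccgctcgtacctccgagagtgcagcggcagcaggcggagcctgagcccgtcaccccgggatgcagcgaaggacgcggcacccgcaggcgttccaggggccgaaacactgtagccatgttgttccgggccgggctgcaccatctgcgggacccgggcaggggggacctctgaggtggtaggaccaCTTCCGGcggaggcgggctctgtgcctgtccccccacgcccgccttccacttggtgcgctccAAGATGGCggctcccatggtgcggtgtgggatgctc
Mrpl55: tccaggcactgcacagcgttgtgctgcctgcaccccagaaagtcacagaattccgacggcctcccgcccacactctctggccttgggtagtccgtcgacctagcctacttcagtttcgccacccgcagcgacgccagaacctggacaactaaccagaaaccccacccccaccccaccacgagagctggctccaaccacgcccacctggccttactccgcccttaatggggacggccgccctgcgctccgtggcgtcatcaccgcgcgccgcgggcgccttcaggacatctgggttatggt

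Among the printed windows, those of Mrpl52, Mrps16 and Mrps27 hold ETS letters, and none of these genes passed the test. A link between the letters and the direction of a difference was not tested. Of the 66 genes, 23 held the ETS letters (34.8%), against 20.9% of the 9379 tested genes with a window. The YY1 letters were in 12 (18.2%, against 5.59%), the NRF1 letters in 8 (12.1%, against 6.13%) and the TATA letters in 5 (7.58%, against 8.69%). Counted by window, the shares were 31.9%, 16.7%, 11.1% and 6.94% of the 72 windows of these genes, against 17.9%, 4.58%, 5.20% and 7.14% of the 11995 windows of tested genes and 8.86%, 2.75%, 2.71% and 13.6% of all 32851 windows. The letters say nothing of binding, which was not measured.

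Chromosome 11, which carries Il3, holds 10 of the 75 genes. Their median difference was -0.14 and limma called 0 of them, with 1 at an unadjusted p under 0.05 (Mrpl12). The nearest was Mrpl22, with 23 tested genes between it and Il3, at 13.01, 7.62 and 9.49 CPM in 5xFAD and 7.05, 8.56 and 5.58 CPM in Il3-/-5xFAD (-0.44 ± 0.22, limma adjusted p = 0.355), with overlap. Mrpl55, 39 tested genes from Il3, was at 9.47, 10.6 and 9.15 CPM against 6.21, 7.78 and 9.37 CPM (-0.30 ± 0.19, limma adjusted p = 0.455), and Mrpl12 lay 746 tested genes away.

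Transcript length moved with the differences of all genes, and mitochondrial ribosomal protein transcripts are short, with a median of 1226 bases against 3013.5 for all tested genes. Tested genes were divided by length into 5 classes of equal size. In the class of the shortest (132 to 1705 bases), which held 49 of the 75, their median difference was -0.13, and that of the 2304 other genes was -0.15. From the shortest to the longest class the other genes' medians were -0.15, -0.02, 0.00, 0.04 and 0.09. In the 4 longer classes the medians of the mitochondrial ribosomal protein genes were 0.01 (8 genes, 4 negative), -0.17 (8 genes, 7 negative), -0.10 (7 genes, 6 negative) and -0.11 (3 genes, 2 negative). In the 3 classes of the longest transcripts they thus lay below the other genes, over few genes. In that shortest class the median was -0.42 for 75 cytosolic ribosomal proteins and -0.29 for 67 oxidative phosphorylation subunits. After each library's trend with length was removed, the median of the 75 genes was -0.0066 with 39 of 75 negative. With that correction the median of the cytosolic ribosomal proteins went from -0.41 to -0.22 and the median of the oxidative phosphorylation subunits from -0.27 to -0.08. The large-subunit median was then -0.01 and the small-subunit median 0.07.

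**Figure D4:**
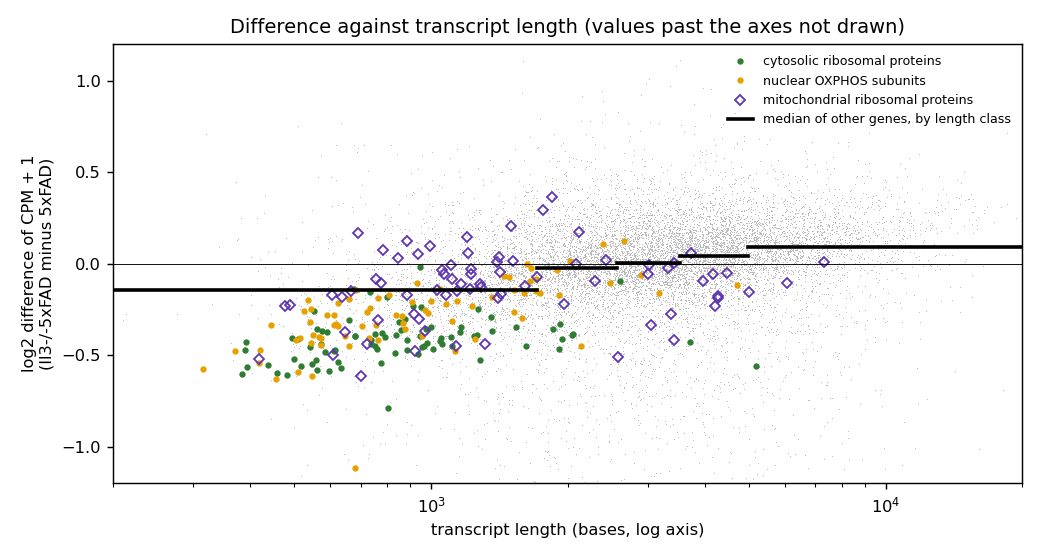
Log2 difference of CPM + 1 (Il3-/-5xFAD minus 5xFAD) against transcript length in bases (log axis) for tested genes (grey), mitochondrial ribosomal proteins (open diamonds), cytosolic ribosomal proteins and nuclear oxidative phosphorylation subunits, with the median of the other genes in each of 5 length classes (black lines). In the shortest class the mitochondrial ribosomal proteins lie around -0.13, near the other genes at -0.15 and above the cytosolic ribosomal proteins at -0.42.

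The wider machinery of mitochondrial gene expression was described from lists. For comparison, limma called 0.882% of all tested genes and had 16.5% at an unadjusted p under 0.05. Of the 7 mitoribosomal proteins with other symbols limma called 0, with 0 at an unadjusted p under 0.05 (median -0.20). Among them, Dap3, a small-subunit protein that binds GTP, was at 40.4 ± 3.89 and 37.2 ± 5.45 CPM (SD, n = 3; -0.12 ± 0.13), and Aurkaip1, also of the small subunit, at 33.7 ± 3.99 and 30.7 ± 5.39 CPM (-0.14 ± 0.14). Of 28 assembly and ribosomal RNA factors limma called 0 (1 at an unadjusted p under 0.05, median 0.03), including the RNA helicase gene Dhx30 (0.14 ± 0.11) and Afg3l2, which encodes a subunit of the m-AAA protease that cuts Mrpl32 (-0.06 ± 0.09). As a group the assembly factors lay close to 0.

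Of 19 translation factors 0 were called (2 at an unadjusted limma p under 0.05, median 0.10), with Gfm2, which splits the ribosome after termination, at 0.11 ± 0.10 and Lrpprc, which stabilises mitochondrial mRNAs, at 0.13 ± 0.08. Of 20 genes listed with the aminoacyl-tRNA synthetases 0 were called (median 0.05), and Iars2, the isoleucine enzyme, was at 0.04 ± 0.09. This list also holds Pet112l, Gatc and Qrsl1, which encode subunits of an amidotransferase and not synthetases. Its 1 gene at an unadjusted limma p under 0.05 was Qrsl1 (0.49 ± 0.17). Neither the 10 genes of mitochondrial transcription and replication (median 0.14) nor the 8 regulators of biogenesis (median 0.09) held a called gene or one at an unadjusted p under 0.05. Polrmt, the mitochondrial RNA polymerase, was at 0.18 ± 0.11, Polg, the DNA polymerase, at 0.11 ± 0.09, Myc at 0.19 ± 0.12 and Yy1 at 0.09 ± 0.09. Of 26 import genes 0 were called (3 at an unadjusted p under 0.05, median -0.09), among them Hspa9, the chaperone that pulls proteins into the matrix (-0.17 ± 0.09), and Tomm70a, a receptor of the outer membrane (0.02 ± 0.09). In these 7 lists edgeR and DESeq2 called 0 as well. The mRNAs encoded in mitochondrial DNA were not analysed here.

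Larger differences were measured for the cytosolic ribosome, which makes the imported proteins, and for the complexes of oxidative phosphorylation; the difference between lists was not tested. Of 84 cytosolic ribosomal protein genes 83 were negative (median -0.41). Limma called 3 lower and 1 higher, edgeR with TMM factors 0 lower and 1 higher, and DESeq2 52 lower and 1 higher. Of the 84, 79 had an unadjusted limma p under 0.05 (94.0%, against 16.5% of all tested genes), 78 of them lower. The groups did not overlap for 74 that were lower and 1 that was higher (89.3%, against 21.2% of all tested genes). Over all 11900 tested genes limma called 105, edgeR with TMM factors 60 and DESeq2 605. Their summed level was 26757, 28521 and 29353 CPM in 5xFAD and 17643, 22122 and 24678 CPM in Il3-/-5xFAD, without overlap. Rpl36 fell from 131 ± 8.32 to 87.0 ± 16.3 CPM (-0.61 ± 0.12, limma adjusted p = 0.047), and the called rise was that of Rpl26 (1.33 ± 0.13). Of 78 nuclear oxidative phosphorylation subunits 75 were negative (median -0.27). There limma and edgeR called 0, and DESeq2 called 9, all lower. An unadjusted limma p under 0.05 was found for 34 of them (43.6%, against 16.5% of all tested genes). As a percentage of cytosolic ribosomal protein CPM, the 75 mitochondrial genes were at 5.57%, 4.98% and 4.93% in 5xFAD and 7.33%, 5.73% and 5.95% in Il3-/-5xFAD, every Il3-/-5xFAD value above every 5xFAD value.

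Many mitochondrial ribosomal protein genes start back to back with another gene. In the RefSeq table, 25 of 66 (37.9%) had the start of a gene on the opposite strand within 1000 bases, against 1891 of 9379 tested genes (20.2%). Of these neighbours 23 were tested, counting the pair Mrpl46 and Mrps11 (42 bases apart) from each side, and 12 had a difference of the same sign as the ribosomal protein gene. Between Mrpl46 (-0.45 ± 0.15) and Mrps11 (-0.03 ± 0.19) the differences were unequal in size, although a test of that was not made. Mrpl49 (0.29) starts 192 bases from Fau, a gene of the cytosolic ribosome (-0.44 ± 0.12, limma adjusted p = 0.0901).

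Limma called 2 of the 23 neighbours, both higher in Il3-/-5xFAD. Over all tested genes it called 0.882%, with 0.252% higher. Beside Mrpl55, with 55 bases between the starts, 2610507I01Rik had 2, 0 and 0 reads in 5xFAD and 178, 155 and 181 reads in Il3-/-5xFAD (5.98, 5.50 and 5.49 CPM). The groups stand far apart, with a log2 difference of 2.70 ± 0.25 on the log2(CPM + 1) scale (limma adjusted p = 0.000422). This neighbour reached 1 CPM only in the Il3-/-5xFAD libraries, so it passed the filter only through the group where it is high. Its p-value is to be read with that limit. Mrpl55, beside it, lies 39 tested genes from Il3, and a link to that locus was not tested. Over the pooled reads the ratio was 268, with an exact 95% interval of 73.8 to 2219 that covers counting error only. Mrpl55 itself did not pass, and on the log2 scale its difference had the opposite sign (-0.30). 2610507I01Rik was called under every alternative that tested it. Beside Mrps18b, with 756 bases between the starts, Ppp1r10, which encodes a subunit of a nuclear protein phosphatase complex, rose from 78.3, 68.7 and 65.8 CPM to 98.1, 114 and 101 CPM (0.55 ± 0.10, limma adjusted p = 0.0288). That call was lost with no filter, without the variance trend, with the length correction and without any of 5xFAD replicate 5, 5xFAD replicate 6 or Il3-/-5xFAD replicate 2 (limma adjusted p from 0.0528 to 0.217 over these).

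**Figure D5:**
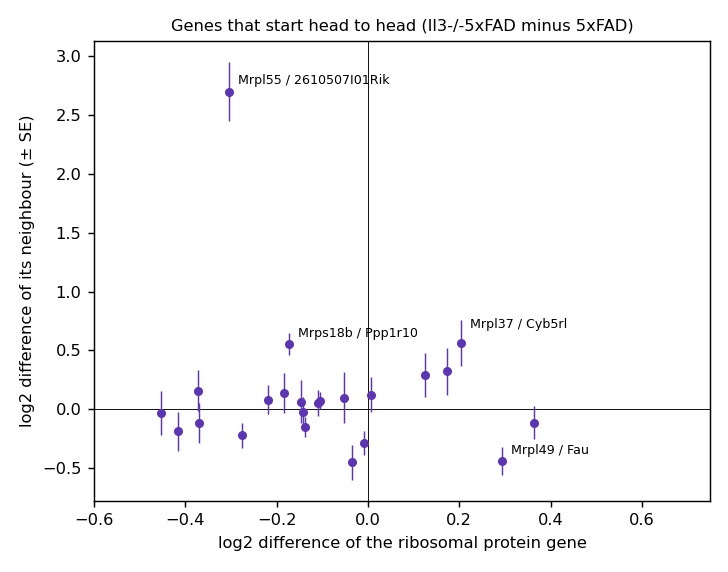
Log2 difference (Il3-/-5xFAD minus 5xFAD) of each tested neighbour that starts head to head with a mitochondrial ribosomal protein gene (vertical axis, with SE) against that of the ribosomal protein gene (horizontal axis). Most of the 23 points lie near 0 on both axes, and 2610507I01Rik, at 2.70, lies far above the others while its partner Mrpl55 is at -0.30.

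Shared sequence limits some of these values. In GENCODE transcripts, 4 of the 75 genes had at least 5% of their stretches of 50 bases in another gene on the same strand, led by Mrpl23 with its pseudogene Mrpl23-ps1 (76.4%), followed by Mrps6 (32.2%), Mrpl33 (30.3%) and Mrps18c (13.2%). On the opposite strand 18 genes had such an overlap, among them Mrps25 with Nr2c2 (73.9%), Mrps18b (52.9%), Mrps34 with Mapk8ip3 (52.4%), Mrpl24 with Rrnad1 (42.5%), Mrps27 (12.2%) and Mrpl12 (8.29%). The library kit keeps the strand, but whether the counting used it is not given in the sources used here. Whether reads of these genes and of their antisense partners were kept apart is therefore not known.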

How the data were processed

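Sorted microglia were profiled by RNA sequencing in 3 libraries per genotype, grouped by their titles. The values deposited by the authors were CPM in 1 table, and STAR, HTSeq, edgeR and mm9 are listed in the submitters' processing notes, without roles. For annotation, counting mode and filters nothing is given in the sources used here. All values were whole multiples of 1 read (100%, within 0.01 reads), worth 0.0266 to 0.0358 CPM, so the reads were recovered. P-values set a group difference against the spread between pools, with each gene's variance moderated across genes.

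Genes reaching 1 CPM in 3 or more of the 6 libraries were tested with limma 3.58.1 (trend, two-sided) on log2(CPM + 1), which understates changes of low genes, in R 4.3.3, with Benjamini-Hochberg adjustment over all 11900 genes at 0.05. The step was tested on simulated data. Alternatives included edgeR 4.0.16 and DESeq2 1.42.0 on recovered reads. The members, lists and tests were chosen with earlier results of these data known.

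Named were any gene called, the 6 with the smallest p in each direction, the 4 highest and 2 lowest per kilobase, and genes fixed for role; in lists, up to 2 called genes or the 2 most abundant. Lengths were those of the longest GENCODE M21 transcript matched to a curated RefSeq entry. GENCODE and RefSeq use GRCm38, not mm9, so coordinates describe the reference windows only. Shared stretches were found with blastn 2.17.0, and figures drawn with matplotlib 3.10.9.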

Additional observations from a re-analysis of the deposited data

How the results depend on the processing

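No paired analysis was possible because the groups share no replicate number. With 3 pools per group, differences well under 2-fold pass only where the pools lie close together. The number of genes called over all tested was 105, and moved to 8 with no filter, 68 with a mean of at least 5 CPM (which drops Mrps36 and Mrpl23), 68 with median-ratio rescaling, 10 without the variance trend, 952 with array weights, 60 with edgeR and TMM factors (25 higher and 35 lower, against 30 and 75), 69 with edgeR and library totals, 605 with DESeq2 and 52 with the length correction, and ran from 15 to 605 when 1 library was left out, lowest when 5xFAD replicate 6 and highest when Il3-/-5xFAD replicate 3 was absent. Of the mitochondrial ribosomal protein genes 0 were called in any of these except 1 (Mrpl52) with array weights, and 0 to 1 when 1 library was left out. Their median difference was -0.0066 with the length correction and ran from -0.19 to -0.08 when 1 library was left out.

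Over 19 alternatives, 489 of 512 values of the 27 named mitochondrial ribosomal protein genes kept their direction and their side of the threshold, 21 reversed and 2 (Mrpl52) passed, and 16 of the 27 genes never reversed. The reversals were Mrpl32 (0.068) and Mrps30 (0.025) with quantile normalization, Mrpl35 (-0.11) with array weights, Mrps30 with edgeR under TMM factors (0.0107) or library totals (0.0096) and with DESeq2 (0.01003), and Mrpl24 (0.074), Mrpl33 (0.091), Mrps21 (0.093), Mrpl41 (0.12), Mrps18a (0.029) and Mrps18c (0.083) with the length correction. When 1 library was left out, Mrpl24 ran from -0.11 to 0.017, Mrpl35 from -0.16 to 0.23, Mrpl32 from -0.046 to 0.037, Mrps30 from -0.21 to 0.17, Mrps25 from -0.28 to 0.056 and Mrpl3 from -0.22 to 0.052. The cause of each was not tested, beyond the smaller number of libraries or genes that some settings leave.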

Other observations

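Lars2, the mitochondrial leucyl-tRNA synthetase, had the largest standard error of the genes whose differences are given here. It was at 533.5, 3501 and 332 CPM in 5xFAD replicates 4, 5 and 6 and at 1707, 2450 and 489 CPM in Il3-/-5xFAD replicates 1, 2 and 3 (log2 difference 0.57 ± 0.73, limma adjusted p = 0.748). High and low libraries occur in both groups, so the summed level of the synthetase list, from 699.8 to 3873 CPM, follows this gene.

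Below the filter, Mrpl53 was read at 0.715, 0.068 and 0.399 CPM in 5xFAD and 0.873, 0.355 and 0.243 CPM in Il3-/-5xFAD (2 to 26 reads). The pseudogene Mrpl23-ps1, which holds most of the stretches of Mrpl23, had 3, 30 and 14 reads in 5xFAD and 19, 21 and 47 reads in Il3-/-5xFAD. The other pseudogenes had at most 9 reads in any library.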
